A study of Arabidopsis thaliana with 6 samples.

Results

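The genes described here package DNA into nucleosomes, modify or move those nucleosomes, or act in small RNA pathways. They were chosen by symbol alone: a probe set had to name a single gene in the platform annotation, and the symbol had to begin with 1 of 19 prefixes for histones, histone-modifying enzymes, chromatin remodellers, DNA methyltransferases, methyl-CpG-binding proteins or small RNA factors. In all, 9 genes met the rule, of 8854 genes with such a probe set, and each had 1 probe set. They were the histone H2B genes HTB1 (AT1G07790), HTB2 (AT5G22880), HTB4 (AT5G59910) and HTB11 (AT3G46030), the histone deacetylase gene HDA15 (AT3G18520), the chromatin remodeller genes CHR17 (AT5G18620), CHR18 (AT1G48310) and CHR23 (AT5G19310), and the Argonaute gene AGO7 (AT1G69440). The other 15 prefixes, those of histones H2A and H3, SET-domain methyltransferases, Dicer-like proteins and RNA-dependent RNA polymerases among them, matched no named probe set. Of the 16129 probe sets, 6840 are unnamed here, and whether they include genes of those kinds cannot be seen. Genes under those prefixes were therefore not analysed.

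All arrays came from distal leaves of Arabidopsis thaliana Col-0 (Columbia ecotype), aged 3 to 4 weeks. Leaves were taken 24 h after a primary leaf of the same plant had received exudate in MgCl2 (mock) or the same with glycerol-3-phosphate (G3P), a small phosphorylated metabolite that takes part in systemic signalling. Each group had 3 replicates from separate sets of plants, with 1 ATH1 array each, so the infiltration and the exudate were common to both groups and no untouched plants were among them. The dose of G3P is not given in the sources used here.

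Nucleosomes hold DNA around pairs of histones H2A, H2B, H3 and H4, and most new histone is made while DNA is replicated, so H2B transcripts are usually richest in dividing tissue. Deacetylases remove acetyl groups from histone tails, which usually accompanies lower transcription, and SNF2-family ATPases slide, evict or exchange nucleosomes. Argonaute proteins hold small RNAs and carry them to matching transcripts. In a mature leaf most cells no longer divide, and chromatin factors there act largely on genes already packaged.

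None of the 9 genes passed the test of G3P against mock leaves. With limma and Benjamini-Hochberg adjustment over all probe sets, 0 members had an adjusted p under 0.05, against 0% of the 16129 probe sets, and the smallest adjusted p of a member was 0.912. At an unadjusted p under 0.05 there were again 0 members, where 3.08% of all probe sets lay. The mock and G3P signals overlapped for each of the 9 genes, while the groups did not overlap for 8.64% of all probe sets. The log2 difference, taken as G3P minus mock on log2(signal + 16), was negative for 8 members and positive for 1. Of all probe sets, 53.5% had a negative difference. The median of the members was -0.15, beside -0.03 over all probe sets. Without G3P replicate 3 the median of the members was 0.06, and HTB1, HTB2, HTB11 and AGO7 turned positive. The differences ran from -0.64 for CHR23 to 0.18 for HTB4, and the remodeller genes had the 3 most negative. In extracts of whole leaves, fewer cells of a type and less RNA per cell cannot be told apart.

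Median signals of the arrays lay between 291 (G3P replicate 1) and 338 (mock replicate 1). G3P replicate 3 stood apart, correlating across probe sets at 0.842 to 0.913 with the remaining arrays, which correlated at 0.930 to 0.961 with each other. For 1223 probe sets its value was more than 1 log2 unit beyond the range of the others, against 42 to 186 on each of the rest, and none of the 9 members was among them on any array. The leaf label was checked against mesophyll genes, of which 6 of 26 had a named probe set. All 6 were above the 99th percentile of brightness, and 0 were at a signal of 0. Their summed signal was 121563 to 148608 in mock and 57341 to 123115 in G3P leaves, where G3P replicate 3 was the lowest. The log2 difference was negative for all 6, and 0 had an unadjusted p under 0.05 in limma. Without G3P replicate 3 the differences ran from -0.47 for RCA to 0.03 for PSBW.

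The histone H2B genes encode the core histone that pairs with H2A in each nucleosome. HTB4 was the brightest probe set of the 9, with signals of 1532, 1659 and 1965 on mock replicates 1, 2 and 3 and of 1990, 2165 and 1707 on G3P replicates 1, 2 and 3. Mock replicate 3 lay within the G3P values, so the groups overlapped, although G3P replicates 1 and 2 were above all mock arrays. Log2 means (± SD, n = 3) were 10.75 ± 0.18 for mock and 10.94 ± 0.17 for G3P, which differed by 0.18 ± 0.20 (SE) with a 95% interval of -0.28 to 0.65 (limma, adjusted p = 0.913). HTB4 was the only member with a higher mean in G3P leaves, and its difference was positive with each array left out, from 0.11 to 0.28.

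HTB11 had signals of 1705, 1178 and 1688 on the mock arrays and of 1680, 1463 and 1003 on the G3P arrays, each in the order of replicates 1 to 3. G3P replicate 3 was the lowest array and mock replicate 2 the next, and the G3P values spanned all but the upper end of the mock range. The log2 difference was -0.15 ± 0.27 (SE), with a 95% interval of -0.76 to 0.46 (limma, adjusted p = 0.938), and it was 0.06 without G3P replicate 3.

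HTB2, whose protein is widely used with a fluorescent tag to mark plant nuclei, gave 699, 568 and 474 on mock arrays and 587, 694 and 281 on G3P arrays. Only G3P replicate 3 lay below the mock range. The difference was -0.23 ± 0.35 (SE) with a 95% interval of -1.04 to 0.58 (limma, adjusted p = 0.934), so a fall of 2-fold lay within the interval. Without G3P replicate 3 the difference was 0.15. HTB1 gave 725, 508 and 573 on mock and 658, 618 and 486 on G3P arrays, and its group means of 9.26 ± 0.25 and 9.23 ± 0.22 (log2, SD, n = 3 each) were nearly equal. Its difference of -0.03 ± 0.23 (SE) had a 95% interval of -0.57 to 0.51 (limma, adjusted p = 0.989), and its sign turned without mock replicate 1, to 0.11, and without G3P replicate 3, to 0.10.

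The 4 H2B genes therefore had a median difference of -0.09, and the intervals of HTB1, HTB4 and HTB11 lay within 2-fold in either direction, as did those of 52.6% of all probe sets. No adjustment for multiple genes was made to the intervals. G3P replicate 3 was the lowest array for HTB1, HTB2 and HTB11, while for HTB4 it was mock replicate 1. Without G3P replicate 3 the differences of all 4 were positive, with a median of 0.12. H2B genes are close paralogs. All 9 member probe sets carry the plain suffix that Affymetrix gives to sets designed for a single transcript, but whether an H2B probe also binds transcripts of another H2B gene was not tested.

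Markers of dividing cells were read beside the H2B genes, since histone supply follows DNA replication. Of 47 listed markers 4 had a named probe set, and 0 of these were at a signal of 0. Their summed signal was 263 to 467 in mock and 189 to 552 in G3P leaves. PRL, which encodes the MCM7 subunit of the replicative helicase, had a log2 difference of -1.01 ± 0.56 (SE) and ICU2, the catalytic subunit of DNA polymerase alpha, one of -0.18 ± 0.60. The mitotic Aurora kinase genes AUR1 and AUR2 had 0.44 ± 0.30 and 0.48 ± 0.64. AUR1, as 1 of the 4, was higher on each G3P array than on any mock array. Groups did not overlap for 8.64% of all probe sets. AUR1 signals of 96.4 and 94.1 on G3P replicates 1 and 3 were close to the 87.7 of mock replicate 3. The difference of AUR1 was 0.22 without G3P replicate 2, and that of PRL was -0.63 without G3P replicate 1 and -1.68 without G3P replicate 2. The difference of ICU2 was 0.16 without G3P replicate 1 and that of AUR2 -0.16 without mock replicate 3. None of the 4 passed (limma, smallest adjusted p = 0.912). The dividing-cell sum was highest on G3P replicate 2 and next on mock replicate 1, and the part of cell division in the H2B values was not tested.

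**Figure D1:**
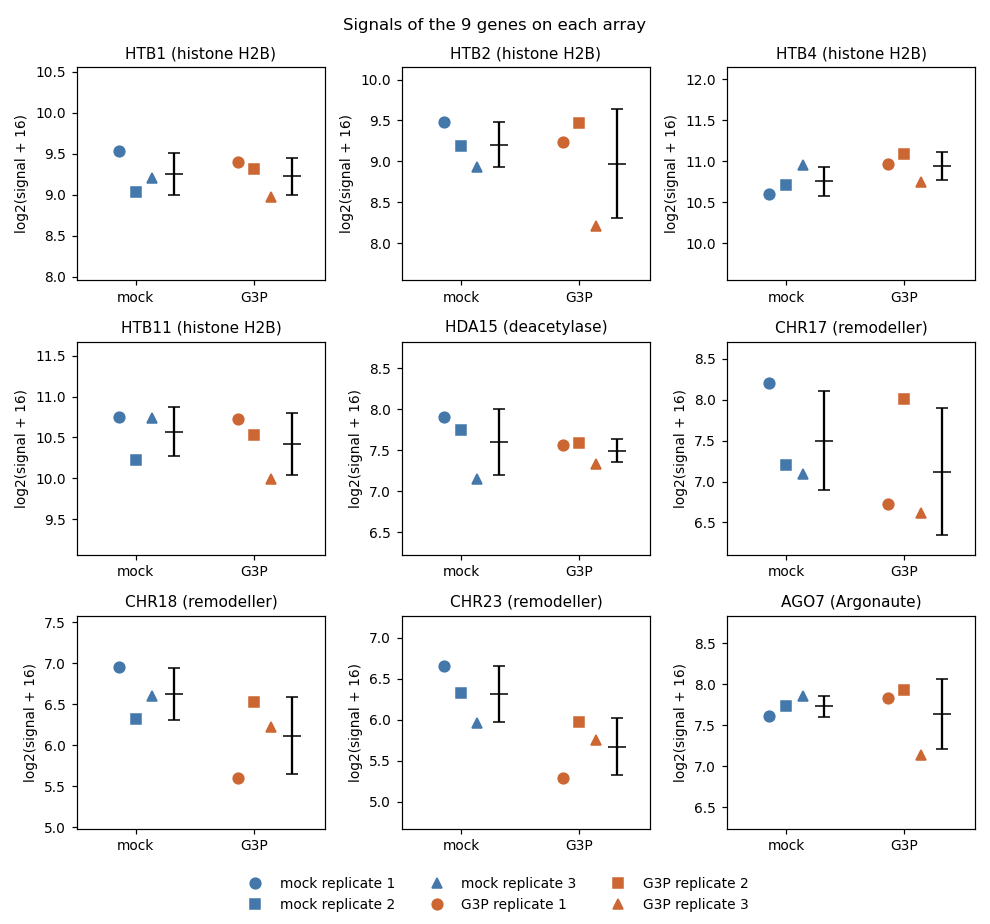
Each panel shows 1 gene, with log2(signal + 16) on the vertical axis, blue symbols for the 3 mock arrays and orange symbols for the 3 G3P arrays, and black bars for the group mean ± SD (n = 3). The panels share a span but not a level, and mock and G3P values overlap in all 9; the CHR23 groups overlap only through mock replicate 3 (46.4) and G3P replicate 2 (46.6).

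HDA15 is a class II histone deacetylase known for acting with the phytochrome-interacting factor PIF3 to hold down chlorophyll and photosynthesis genes in dark-grown seedlings. Its signals were 224, 199 and 126 on mock and 173, 177 and 146 on G3P arrays. The mock arrays held both the highest and the lowest value, and the G3P values fell between them. Log2 means (± SD, n = 3) were 7.60 ± 0.40 for mock and 7.50 ± 0.14 for G3P, with a difference of -0.11 ± 0.28 (SE) and a 95% interval of -0.75 to 0.54 (limma, adjusted p = 0.958). The sign turned without mock replicate 1, to 0.05, and the difference was -0.33 without mock replicate 3.

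The remodeller genes encode ATPases of the SNF2 family. CHR23 belongs to the SWI/SNF-type ATPases and is known for restraining growth when overexpressed. Its signals were 84.6, 64.1 and 46.4 on mock arrays and 23.0, 46.6 and 38.1 on G3P arrays. The lowest mock array and the highest G3P array were almost level, and all other mock arrays lay above all G3P arrays. Log2 means (± SD, n = 3) were 6.31 ± 0.34 for mock and 5.67 ± 0.35 for G3P. The difference of -0.64 ± 0.36 (SE) had a 95% interval of -1.47 to 0.19 and the smallest unadjusted p of the 9 members, 0.112 (limma, adjusted p = 0.912). The ratio of medians, without a pseudocount, was 0.594. With each array left out in turn the difference stayed between -0.82 and -0.45.

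CHR18 gave 109, 63.8 and 81.1 on mock arrays and 32.6, 76.2 and 59.0 on G3P arrays. G3P replicates 1 and 3 lay below all mock arrays, and G3P replicate 2 lay among them. The difference was -0.51 ± 0.36 (SE), with a 95% interval of -1.34 to 0.32 (limma, adjusted p = 0.912). It was -0.25 without G3P replicate 1, which held the lowest value, and -0.71 without G3P replicate 2.

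CHR17 is an ISWI-type ATPase, a kind known for spacing nucleosomes evenly along genes. Its signals were 278, 132 and 121 on mock arrays and 90.0, 242 and 82.2 on G3P arrays. Mock replicate 1 and G3P replicate 2 stood well above the other 4 arrays, so 1 high array was in each group. The difference was -0.38 ± 0.46 (SE) with a 95% interval of -1.45 to 0.69 (limma, adjusted p = 0.917). It was -0.03 without mock replicate 1 and -0.83 without G3P replicate 2, the widest span of the 9 members.

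All 3 remodeller genes had their highest signal on mock replicate 1, where 27.3% of all probe sets had theirs. This was not particular to the remodeller genes: 3 of the 4 H2B genes (HTB1, HTB2 and HTB11) and HDA15 were also highest there. In all, that array was the highest for 7 of the 9 members. Values of the remodeller genes spread over 1.36 to 1.58 log2 units across the 6 arrays, against 0.50 to 1.27 for the H2B genes. Averaged over the 3 genes, the deviation from each gene's mean of 6 arrays was 0.71 on mock replicate 1, 0.06 on mock replicate 2 and -0.01 on mock replicate 3. On G3P replicates 1, 2 and 3 it was -0.69, 0.28 and -0.36. The largest departures were therefore those of mock replicate 1 and G3P replicate 1, and G3P replicate 2 lay above mock replicates 2 and 3.

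The remodeller probe sets were dim: CHR23 and CHR18 lay at the 10.1 and 14.9 percentiles of brightness over all probe sets and CHR17 at the 29.5 percentile. The dimmest 25% of all probe sets had a median difference of -0.10 and the next 25% one of -0.08, beside 0.02 for the brightest 25%. Mock replicate 1 had the highest median signal over the dimmest 25%, 69.0, against 51.6 to 58.3 on the other arrays. After quantile normalization the median differences of the dimmest and the next 25% were 0.02 and 0.01, and the remodeller median was -0.41 in place of -0.51. The part of probe brightness beyond that scaling was not tested.

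**Figure D2:**
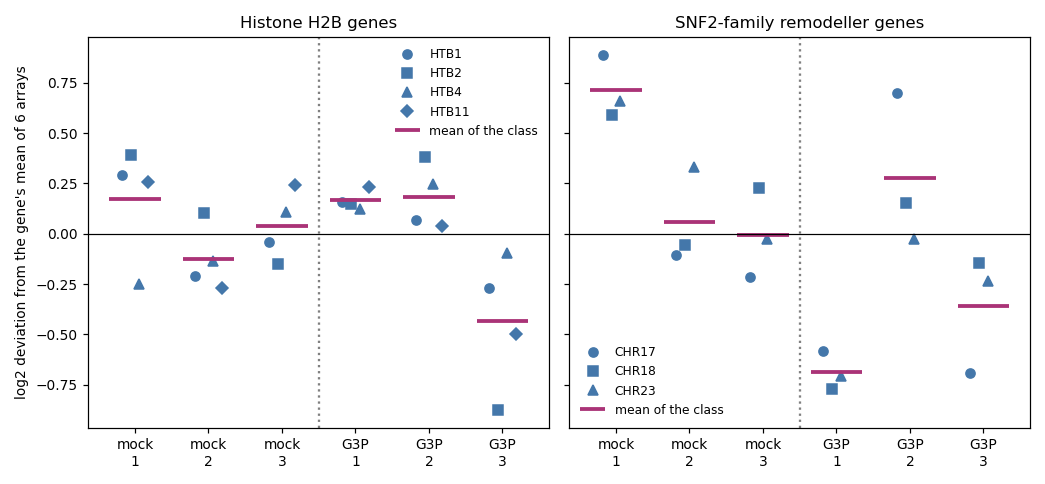
The vertical axis gives each gene's log2 deviation from its own mean over the 6 arrays, for the 4 H2B genes (left) and the 3 remodeller genes (right), with a magenta bar for the mean of the class on each array. H2B means lie between -0.13 and 0.18 on all arrays but G3P replicate 3 (-0.43), whereas the remodeller means range from 0.71 on mock replicate 1 to -0.69 on G3P replicate 1.

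The remodeller and H2B genes were set against each other on each array, as the mean log2 signal of the 3 minus that of the 4. Only changes in this value from array to array can be read, since levels of different probe sets are not comparable. It was -2.82, -3.17 and -3.40 on mock replicates 1, 2 and 3 and -4.21, -3.26 and -3.28 on G3P replicates 1, 2 and 3. G3P replicate 1 was the lowest array, and the other 2 G3P arrays lay within the mock range. The G3P mean lay 0.45 below the mock mean, with SDs of 0.29 (mock) and 0.54 (G3P, n = 3 each), and 0.14 below it without G3P replicate 1. No test was made of this value, since the classes were compared with results of these data known.

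AGO7 binds the microRNA miR390 and starts the production of trans-acting small RNAs from TAS3 transcripts, which restrain auxin response factors and affect the change from juvenile to adult leaves. Its signals were 179, 196 and 217 on mock arrays and 213, 228 and 125 on G3P arrays. G3P replicate 3 was the lowest array and G3P replicate 2 the highest, so the mock values lay between them. Log2 means (± SD, n = 3) were 7.73 ± 0.13 for mock and 7.64 ± 0.43 for G3P, with a difference of -0.10 ± 0.28 (SE) and a 95% interval of -0.75 to 0.56 (limma, adjusted p = 0.962). Without G3P replicate 3 the difference was 0.15.

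**Figure D3:**
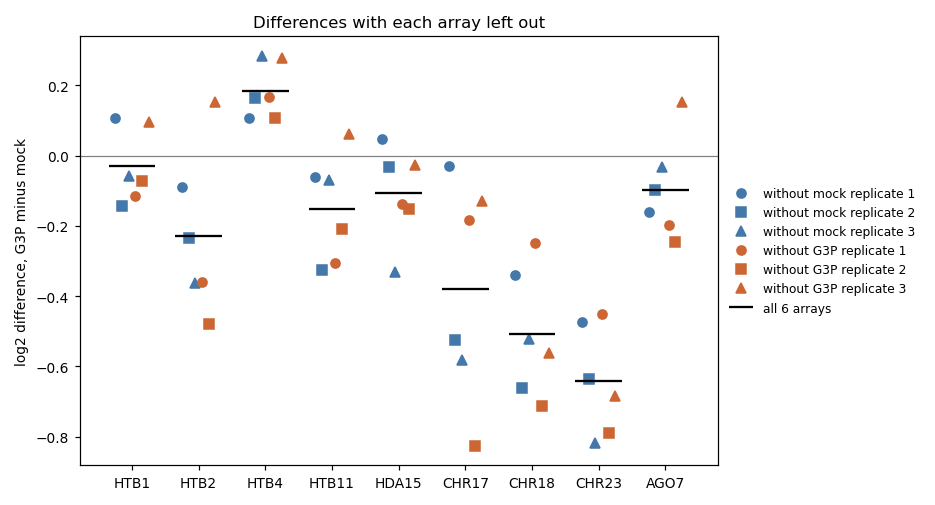
Horizontal bars give the log2 difference (G3P minus mock) of each gene over all 6 arrays, and symbols give it with 1 array left out. The 3 remodeller genes stay below 0 and HTB4 stays above 0, while HTB1, HTB2, HTB11, HDA15 and AGO7 have values on both sides; without G3P replicate 3, HTB1, HTB2, HTB11 and AGO7 are at 0.10, 0.15, 0.06 and 0.15.

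Other genes of the same pathways came from 5 lists of 209 symbols in all, some of them alternative names of the same gene, and 18 genes had a named probe set. Of these, 0 passed in either direction (limma, smallest adjusted p = 0.912), 2 had groups that did not overlap, both lower in G3P leaves, and 3 had an unadjusted p under 0.05, all lower. Over all probe sets these shares were 8.64% and 3.08%. The 2 of 18 lay near the share without overlap, while the 3 of 18 lay above the share at that unadjusted p. Neither count was tested against its share. Their median difference was -0.32, with 16 negative, where 53.5% of all probe sets were negative. After quantile normalization the median was -0.24.

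Among 8 measured genes of nucleosome assembly and remodelling, 7 had negative differences, with a median of -0.20. CHC1, an accessory subunit of SWI/SNF remodelling complexes, had signals of 462, 283 and 430 on mock and 141, 329 and 183 on G3P arrays. G3P replicate 2 lay within the mock values and the other 2 G3P arrays below them, with a difference of -0.85 ± 0.35 (SE) and an adjusted p of 0.912 in limma. HON4, annotated as a linker histone-type gene, gave 1366, 1040 and 1558 on mock and 487, 1136 and 741 on G3P arrays, with a difference of -0.80 ± 0.33 (SE) and the same adjusted p in limma, and -0.50 without G3P replicate 1. As for CHR18, G3P replicate 1 was the lowest array and G3P replicate 2 the G3P array that reached the mock range.

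Of 3 measured genes of the Polycomb, Trithorax and demethylation list all had negative differences. ULT1, a SAND-domain factor of the Trithorax group, gave 173, 86.6 and 141 on mock and 82.1, 79.9 and 31.7 on G3P arrays. These groups did not overlap, though mock replicate 2 and G3P replicate 1 were close. The difference was -0.92 ± 0.40 (SE; limma, adjusted p = 0.912) and was -0.58 without G3P replicate 3, which lay over 1 log2 unit below the other arrays. LDL2, a homolog of the lysine demethylase LSD1, had a difference of -0.27 ± 0.31 (SE), and of -0.13 without mock replicate 3 and -0.16 without G3P replicate 3. The only measured gene of DNA methylation and demethylation was DME, a DNA glycosylase that removes methylated cytosine, with -0.38 ± 0.50 (SE) and 0.10 without G3P replicate 3. Its other 2, dimmer probe sets disagreed in sign, at 0.09 and -0.89. Partners of histone acetylation had 0 measured genes of 32.

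For small RNA production, 5 of 6 measured genes had negative differences, with a median of -0.40. TGH, a factor that helps Dicer-like proteins cut microRNA precursors, gave 184, 67.1 and 60.9 on mock and 8.4, 90.0 and 2.2 on G3P arrays. On G3P replicates 1 and 3 the signal was smaller than the pseudocount, which makes the size of the difference, -1.59 ± 0.71 (SE; limma, adjusted p = 0.912), uncertain. SIC, a proline-rich protein needed for the accumulation of some microRNAs, had 185, 171 and 122 on mock and 102, 116 and 105 on G3P arrays. Its groups did not overlap, and its difference was -0.49 ± 0.26 (SE; limma, adjusted p = 0.912).

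**Figure D4:**
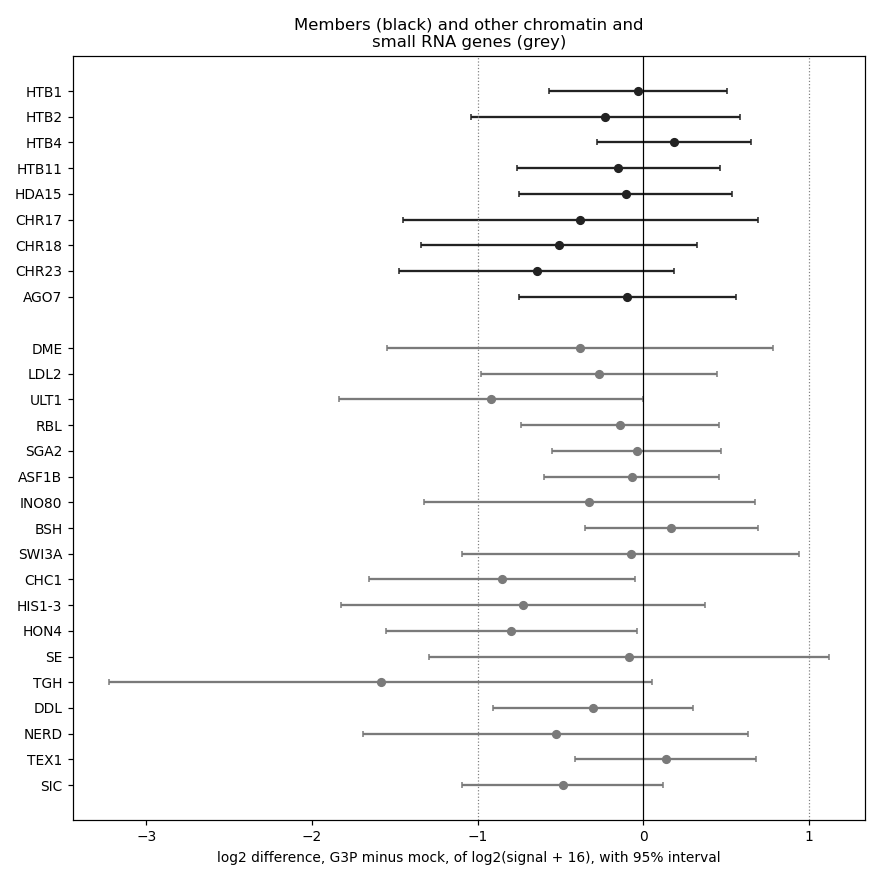
Points give log2 differences (G3P minus mock, on log2(signal + 16)) with their 95% intervals from limma, in black for the 9 members and in grey for the 18 other genes, with dotted lines at 2-fold. The intervals of all members include 0, and those of ULT1, CHC1 and HON4 lie just below it without passing after adjustment over all probe sets.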

How the data were processed

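The authors deposited an intensity (linear scale) for each of 16129 probe sets on each array. They were made with Affymetrix Expression Console 1.0, per the submitters' processing notes. How signals were summarized and scaled, and how the probe sets were selected, is not given in the sources used here. Gene names came from the platform annotation, in which 8950 probe sets named 1 gene, 339 several and 6840 none. Symbols followed RefSeq (assembly TAIR10.1); no genome build is given, so no coordinates are printed. Where a gene of another list had several probe sets, the brightest was used.

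Values were used as deposited, since array medians of log2(signal + 16) differed by 0.206, under the limit of 0.3. The comparison of G3P with mock used lmFit and eBayes of limma 3.58.1 (R 4.3.3), with a variance trend, all 6 arrays and no covariates. P-values of all probe sets were adjusted by Benjamini-Hochberg, and 0.05 was the threshold. Changes of dim probe sets are understated by the pseudocount of 16. The fit was run on simulated data with independent normal noise for each probe set. Those data held no array effect shared by probe sets, so they do not cover an outlying array such as G3P replicate 3. The design text of the study names a rank-sum test, which was run as an alternative, as 3 against 3 allows no exact two-sided p under 0.1. The number of arrays limits the precision.

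All 9 members are described. Of each other list the up to 2 genes with the smallest p were named. Other genes are named where a comparison concerns them. The members and lists were chosen with earlier results of these data known. Symbols that matched a different gene than the listed one (a formate dehydrogenase and REBELOTE) were left out. Promoter motifs were not searched. The alternatives covered a block for the replicate number, other pseudocounts, quantile normalization, median centring, filters on dim probe sets, no variance trend, array weights, the rank-sum test, all probe sets of each gene, and leaving out each array.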

Additional observations from a re-analysis of the deposited data

How the results depend on the processing

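Under all alternatives run, 0 members and 0 probe sets passed the adjusted threshold, and 0 members had an unadjusted p under 0.05. The rank-sum test could give no call with 3 against 3. The setting with all probe sets of each gene repeated the main fit for the members, since no member had several. The smallest adjusted p of a member in any fit was 0.652. The median difference of the members, -0.15 over all 6 arrays, lay between -0.33 (without mock replicate 3) and 0.06 (without G3P replicate 3), and was 0.0027 with array quality weights. Of 128 differences of single members under alternatives, 116 had the sign reported and 12 the other. The replicate block, the fit without a variance trend and the filters on dim probe sets leave each difference unchanged. The 116 therefore include signs that were fixed in advance. HTB1 turned to 0.012 with median centring, 0.13 with array weights, 0.11 without mock replicate 1 and 0.096 without G3P replicate 3. HTB2 turned to 0.0027 with array weights and 0.15 without G3P replicate 3, and HTB11 to 0.096 and 0.061 under the same settings. AGO7 turned to 0.0074 after quantile normalization, 0.044 with array weights and 0.15 without G3P replicate 3, and HDA15 to 0.046 without mock replicate 1. With each array left out in turn, the lowest and highest differences were -0.14 and 0.11 for HTB1, -0.48 and 0.15 for HTB2, -0.32 and 0.061 for HTB11, -0.33 and 0.046 for HDA15 and -0.25 and 0.15 for AGO7. HTB4, CHR17, CHR18 and CHR23 kept their sign in all their alternatives, CHR18 and CHR23 having no value without the dimmest 25% of probe sets and CHR17, HDA15 and AGO7 none without the dimmest 50%. The count of all probe sets at an unadjusted p under 0.05 was 496; it was 227 without the dimmest 50%, where fewer were tested, and with single arrays left out it lay between 233 (mock replicate 1) and 1196 (G3P replicate 2). The cause of these changes was not tested.

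With the replicate number as a block 0 members passed and 0 had an unadjusted p under 0.05, while 685 probe sets had one in limma. The median difference was -0.15, which the block could not change, since both groups hold the same numbers. The block was kept out because nothing in the labels says that a number marks shared plants. Correlations between same-numbered arrays, after subtracting each group's mean, were computed after the fits and were 0.0061, -0.10 and 0.31.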

Other observations

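Several chromatin and small RNA genes had their 2 highest signals on mock replicate 1 and G3P replicate 2, that is, on 1 array of each group. This was looked at, and the genes below were named, after the values had been seen. It held for 2 of the 9 members (HTB2 and CHR17), for 7 of the 18 other pathway genes and for 15.4% of all probe sets. The gap was wide for CHR17, with 278 and 242 against 82.2 to 132 on the other 4 arrays, and for INO80, the ATPase of another remodelling complex, with 426 and 265 against 138 to 160. SE, which encodes the zinc-finger protein SERRATE of microRNA processing, had 202 and 110 on those arrays against 43.1 to 87.8. NERD, which links RNA silencing with DNA methylation, had 148 and 74.2 against 30.3 to 46.2. For HTB2 the gap was small, with 699 and 694 against at most 587. It was also small for RBL, with 212 and 239 against at most 208, and for ASF1B, with 300 and 306 against at most 287. DME had 242 and 154 against at most 138, and TGH 184 and 90.0 against at most 67.1. Across all probe sets the deviations of mock replicate 1 and G3P replicate 2 from their group means correlated at 0.45, the highest value of the 9 pairs of a mock and a G3P array. Both groups contain 1 of these arrays, so the pattern is not a difference between G3P and mock. What these arrays had in common was not tested.

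HIS1-3, a linker histone variant induced by drought and abscisic acid, had signals of 822, 842 and 2335 on mock and 628, 475 and 1163 on G3P arrays. Replicate 3 was the highest array of both groups. The difference was -0.73 ± 0.48 (SE; limma, adjusted p = 0.912) and -0.24 without mock replicate 3. This gene was named after its values were seen.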
